A study of Homo sapiens with 15 samples.

Results

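The genes of the PI3K, AKT and mTOR pathway were followed in the BRCA1-deficient human breast cancer line MDA-MB-436 after treatment with an inhibitor of that pathway, an inhibitor of the DNA repair enzyme PARP1, or both. The set was a list of 28 genes, and a gene counted as measured when 3 or more of the 15 arrays detected an annotated probe of it at a detection p under 0.05. This held for 22 of the 28 genes, out of 12302 genes measured in all. RICTOR had a probe that missed this threshold, and PIK3CA, PIK3R2, PIK3R3, INPP5D and AKT2 had no probe in the annotation used and were not analysed here. The detection rule used no difference between treatments, but the list itself was chosen with earlier results of these data known.

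In this pathway, class I PI3K turns a membrane phosphoinositide into a lipid messenger that recruits PDPK1 and AKT, phosphatases such as INPP4B and PHLPP1 work against the lipid or against AKT, and AKT inhibits the TSC1 and TSC2 complex. That complex keeps the small GTPase RHEB inactive, and active RHEB switches on mTOR complex 1, which phosphorylates S6 kinases and EIF4EBP1 to raise protein synthesis. Most of this control works through phosphorylation of proteins, which an RNA array does not measure. DDIT4 and DEPTOR are inhibitors of mTOR signalling, and DDIT4 in particular is a stress-inducible gene that acts through the TSC complex.

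All cells were MDA-MB-436 and all treatments lasted 7 days. The 5 groups of 3 arrays each were the solvent DMSO, AG014699 (rucaparib, a PARP1 inhibitor) at 10 nM, AG014699 at 100 nM, LY294002 alone, and 100 nM AG014699 with LY294002, called the combination here. LY294002 inhibits PI3K and, as background, also the mTOR kinase, and the sources used here do not give its concentration. The study is a cell culture experiment on a single line, and its labels call the arrays triplicates without saying whether they were separate cultures. P-values therefore rest on the spread among these arrays alone, and that spread may be technical.

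Each array detected 18971 to 20808 of its 48105 probes. Log2 signals correlated across genes at 0.979 to 0.992 within groups and at 0.959 to 0.988 between groups, where genes are not independent replicates. The mesenchymal markers VIM, CDH2, CD44 and AXL were detected on all 15 arrays and SPARC on 2, and the epithelial markers KRT8, KRT18 and EPCAM were detected on all 15. Among receptor genes that are low in triple-negative cells, ESR1 was detected on 3 arrays and ERBB2 on 15. CD68, a macrophage marker that other cells also express, was detected on 15 arrays and the endothelial marker PECAM1 on 2. The signals of array 1 in the 100 nM AG014699 group hold no decimals.

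Values below are normalized log2 signals, differences are between group means (3 arrays against 3), and each standard error (SE) and adjusted p comes from a limma fit to all 15 arrays, adjusted by the Benjamini-Hochberg method over the 12302 genes. A gene passed at an adjusted p under 0.05, and only then is it said to have risen or fallen. The number of arrays limits the precision: the 95% confidence interval of a member's difference between a pair of groups reached 0.25 to 0.72 log2 units to each side. Of the 22 members, 17 were detected on all 15 arrays. RPTOR was detected on 13 arrays, PIK3C2B on 12, PHLPP1 on 6, DEPTOR on 4 and INPP4B on 3, so the last 3 were close to the detection limit throughout.

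At most 4 of the 22 members passed in any comparison, and with the combination their share was near that of all genes. With LY294002 alone, DDIT4 fell 2.00-fold and was the 1 member of 22 that passed, while 1.12% of all genes passed in that comparison. With 100 nM AG014699, MTOR was the 1 member that passed (4.55%), against 21.5% of all genes. This count depended on the processing: with quantile normalization alone 4 members passed, as did 2999 of the 12302 genes. The combination against DMSO had 4 members that passed, with PIK3C3 and TSC1 higher and PIK3CD and AKT1 lower, which is 18.2% of the members against 19.9% of all genes. When AG014699 at 100 nM was added to LY294002, DDIT4 rose and PIK3CD, AKT1 and MLST8 fell, again 4 of 22, against 18.3% of all genes.

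In 4 comparisons no member passed by limma. With 10 nM AG014699 against DMSO, 2.37% of all genes passed, and 4 members had an unadjusted p under 0.05 (12.6% of all genes did). Between the 100 nM and the 10 nM dose 9.58% of all genes passed, and 0 members had an unadjusted p under 0.05 (24.5% of all genes). When LY294002 was added to 100 nM AG014699, 0.333% of all genes passed, and 2 members had an unadjusted p under 0.05 (12.1% of all genes). For the interaction, the effect of LY294002 with AG014699 minus that without, 0.00813% of all genes passed, and 1 member, DDIT4, had an unadjusted p under 0.05 (7.23% of all genes). By the unadjusted p, 6 members were under 0.05 with 100 nM AG014699 (34.3% of all genes), 1 with LY294002 (13.4%), 5 with the combination against DMSO (32.8%) and 5 against LY294002 (31.3%).

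The sizes of the members' changes were like those of other genes. The median absolute log2 difference of the 22 members was 0.14 with 10 nM AG014699, 0.30 with 100 nM, 0.20 with LY294002 and 0.25 with the combination, against 0.15, 0.27, 0.17 and 0.26 over all 12302 genes. The median signed difference from DMSO lay between -0.11 and -0.03 for the members and between -0.03 and -0.01 for all genes. Within the 7 fitted comparisons between pairs of groups the largest difference was that of DDIT4, which fell by 1.00 with LY294002, and all others lay between -0.73 and 0.80. Over the 5 groups together, the moderated F test passed DDIT4, MLST8 and AKT1, 3 of 22 members, against 27.6% of all genes.

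**Figure D1:**
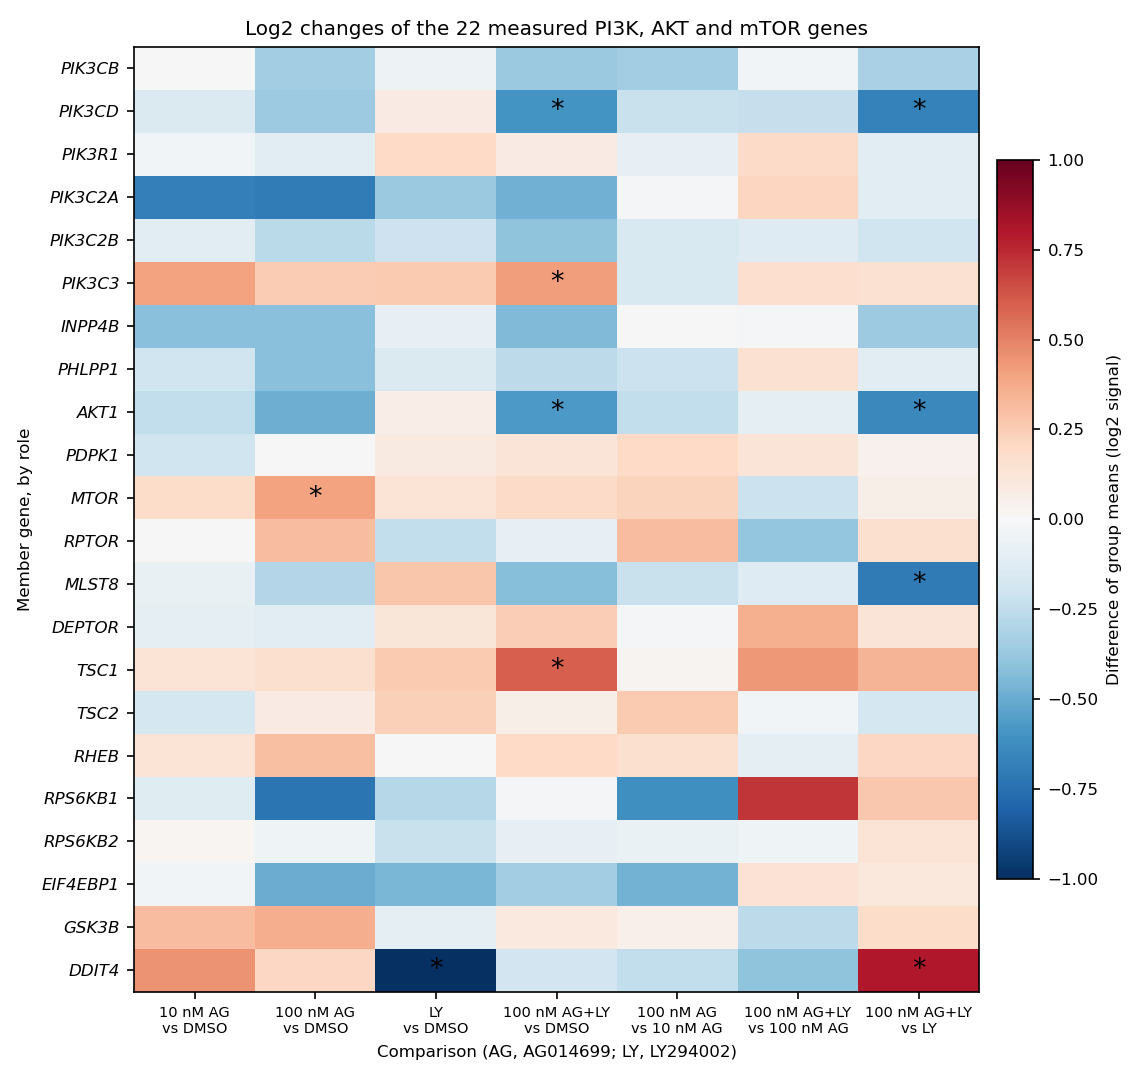
Differences of group means (log2 signal, colour scale up to 1 unit in either direction) for the 22 measured members, ordered by role from top to bottom, in 7 comparisons between pairs of treatment groups of 3 arrays. Stars mark differences with an adjusted p under 0.05; they number 10, and the darkest cells are DDIT4, which fell by 1.00 with LY294002 and rose by 0.80 with AG014699 added to LY294002.

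DDIT4 separated all 5 treatments. Its log2 signals were 9.27, 9.23 and 9.17 on the DMSO arrays and 8.40, 8.08 and 8.20 on the LY294002 arrays. They were 9.71, 9.68 and 9.65 with 10 nM AG014699 and 9.33, 9.55 and 9.41 with 100 nM. The combination gave 9.12, 9.02 and 8.95. No group overlapped with another: 10 nM AG014699 was highest, then 100 nM, DMSO, the combination and, well below these, LY294002 alone.

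With LY294002 DDIT4 fell by 1.00 (SE 0.12, 95% confidence interval -1.25 to -0.75, adjusted p = 0.000343). When 100 nM AG014699 was present as well, the level was 0.80 higher than with LY294002 alone (SE 0.12, adjusted p = 0.000251), a 1.74-fold rise. The other steps in that order did not pass although the arrays did not overlap. The difference from DMSO was 0.45 at 10 nM (adjusted p = 0.0593), 0.21 at 100 nM (adjusted p = 0.227) and -0.19 with the combination (adjusted p = 0.269). LY294002 added to 100 nM AG014699 gave -0.40 (95% confidence interval -0.65 to -0.15, adjusted p = 0.166). The interaction was 0.60 (SE 0.16, unadjusted p = 0.00261, adjusted p = 0.488), so the difference between the effects of LY294002 with and without AG014699 did not pass over all genes. Both calls held under all 27 alternative settings, and the 10 nM difference passed in 6 of the settings that change the processing and without array 1 of LY294002 (adjusted p = 0.0388).

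**Figure D2:**
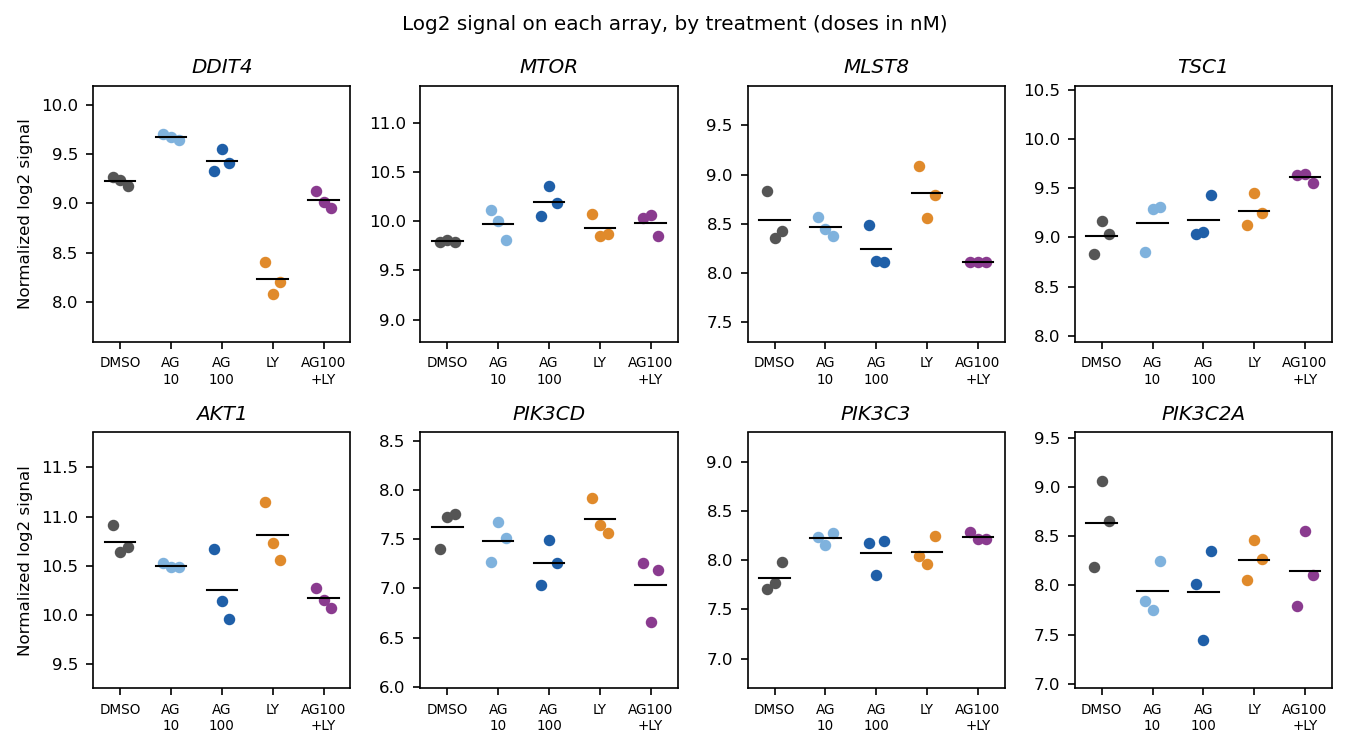
Normalized log2 signal on each array (points) and group mean (line) for 8 members across the 5 treatments, with AG for AG014699 (dose in nM) and LY for LY294002; each panel has its own range of levels and the same height in log2 units. DDIT4 is lowest on the LY294002 arrays (8.08 to 8.40), MLST8 lies at 8.11 to 8.12 on all combination arrays, and PIK3C2A spreads widely within groups.

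Promoter sequences are shown for DDIT4 and MTOR, the 2 members that passed when a single drug was compared with DMSO. Each is the RefSeq stretch from 250 bases before to 50 bases after the gene's start in GRCh38.p14, 5′ to 3′ on the gene's strand, with matches to the searched motifs in capitals.
DDIT4, chr10:72273674-72273973, plus strand: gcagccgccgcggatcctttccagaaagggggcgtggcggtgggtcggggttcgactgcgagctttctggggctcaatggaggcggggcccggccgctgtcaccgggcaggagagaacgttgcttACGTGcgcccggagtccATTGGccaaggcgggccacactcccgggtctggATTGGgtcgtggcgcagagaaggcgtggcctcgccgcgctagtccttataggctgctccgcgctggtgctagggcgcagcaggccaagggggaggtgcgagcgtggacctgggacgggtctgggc
MTOR, chr1:11262502-11262801, minus strand: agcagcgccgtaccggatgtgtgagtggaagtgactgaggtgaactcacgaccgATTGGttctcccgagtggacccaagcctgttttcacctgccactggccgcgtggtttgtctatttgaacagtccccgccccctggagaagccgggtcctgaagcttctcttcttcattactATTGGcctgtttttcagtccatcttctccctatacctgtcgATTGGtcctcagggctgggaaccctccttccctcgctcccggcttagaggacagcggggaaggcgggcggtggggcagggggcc

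The capitals in DDIT4 mark ACGTG, the core letters of the hypoxia response element, and further along, as in MTOR, ATTGG, the reverse complement of the CCAAT box. Promoters of 19 member genes were matched, 32 in all, and both strands were searched for 5 motifs. ACGTG was found in 6 of the 32 member promoters (18.8%), of 6 genes, and in 21.4% of all 35116 promoters. The CCAAT box was found in 14 of the 32 (43.8%), of 12 genes, and in 34.6% of all promoters. The E-box CACGTG, whose last letters are those of the hypoxia core, was found in 2 of the 32 (6.25%) and in 7.26% of all promoters. The ATF4 element TGATGNAA was found in 2 of the 32 (6.25%) and in 3.62% of all promoters. The forkhead element GTAAACA was found in 0 of the 32 and in 3.42% of all promoters. A match describes letters only, and none of these motifs was tested as a binding site.

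Among the class I PI3K genes, the delta catalytic subunit gene PIK3CD was lowest with the combination. It gave 7.40, 7.73 and 7.76 with DMSO, 7.91, 7.64 and 7.56 with LY294002, and 7.26, 6.65 and 7.19 with the combination. With AG014699 it gave 7.27, 7.67 and 7.51 at 10 nM and 7.03, 7.49 and 7.26 at 100 nM. All 3 combination arrays lay below all DMSO and all LY294002 arrays, while the AG014699 groups overlapped with DMSO.

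PIK3CD fell by 0.59 with the combination against DMSO (SE 0.18, adjusted p = 0.0345) and by 0.67 against LY294002 alone (SE 0.18, adjusted p = 0.0198). Against DMSO it did not pass without array 2 of the combination (-0.40, adjusted p = 0.164), DMSO array 2 (-0.54, adjusted p = 0.104) or DMSO array 3 (-0.53, adjusted p = 0.110). Against LY294002 it did not pass without array 2 of the combination (-0.48, adjusted p = 0.104), LY294002 array 1 (-0.57, adjusted p = 0.0769) or array 1 of every group (-0.68, adjusted p = 0.0522). The beta catalytic subunit gene PIK3CB was also lower with 100 nM AG014699 and with the combination, at -0.34 (adjusted p = 0.197) and -0.37 (adjusted p = 0.166), with no overlap with DMSO in either, and did not pass. PIK3R1, the regulatory subunit gene, differed by -0.11 to 0.20 in all comparisons and did not pass.

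The class III kinase gene PIK3C3, which makes the lipid that starts autophagosomes and matures endosomes, had a higher mean than DMSO in each treated group. It gave 7.71, 7.77 and 7.98 with DMSO and 8.29, 8.21 and 8.22 with the combination. With 10 nM AG014699 it gave 8.23, 8.15 and 8.28, with 100 nM 8.18, 7.85 and 8.19, and with LY294002 8.04, 7.97 and 8.24. The combination and the 10 nM arrays did not overlap with DMSO, and the other groups did.

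PIK3C3 rose by 0.42 with the combination (SE 0.13, adjusted p = 0.0337), and the 0.40 with 10 nM AG014699 did not pass (adjusted p = 0.155). The rise did not pass without DMSO array 1 (0.36, adjusted p = 0.118), DMSO array 2 (0.39, adjusted p = 0.0949), any 1 of the 3 combination arrays (adjusted p from 0.0743 to 0.0955) or array 1 of every group (0.34, adjusted p = 0.232). The class II gene PIK3C2A gave 8.19, 9.06 and 8.65 with DMSO, 7.84, 7.75 and 8.25 with 10 nM and 8.02, 7.45 and 8.35 with 100 nM AG014699. These groups overlapped, and the differences of -0.69 and -0.70 did not pass (adjusted p = 0.262 and 0.0710). At 100 nM the difference passed without DMSO array 1 (-0.92, adjusted p = 0.0318) and without array 3 of that group (-0.90, adjusted p = 0.0340). With all arrays kept it passed in some settings but not in all, for example with the signals as deposited (-0.54, adjusted p = 0.0275). PIK3C2B, the second class II gene, differed by -0.40 to 0.07 and did not pass.

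The 2 phosphatase genes, INPP4B and PHLPP1, gave no call and were near the detection limit. INPP4B was detected on 1 array each of DMSO, LY294002 and the combination and on 0 arrays with AG014699 alone. PHLPP1 was detected on 0 arrays with 100 nM AG014699 and on 1 or 2 arrays of each other group. INPP4B differed by -0.44 to 0.06 and PHLPP1 by -0.42 to 0.30, and a modest change of either gene could not be seen at these signals.

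AKT1, the gene of the central kinase, was lower where 100 nM AG014699 was given. It gave 10.91, 10.64 and 10.69 with DMSO and 11.15, 10.73 and 10.55 with LY294002. At 100 nM AG014699 it gave 10.67, 10.14 and 9.96, and with the combination 10.27, 10.16 and 10.07. The 10 nM arrays gave 10.52, 10.49 and 10.49. The combination lay below all DMSO and LY294002 arrays, the 10 nM arrays lay below all DMSO arrays, and array 1 of the 100 nM group lay within the DMSO range, away from its other arrays.

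AKT1 fell by 0.58 with the combination against DMSO (SE 0.18, adjusted p = 0.0359) and by 0.65 against LY294002 (SE 0.18, adjusted p = 0.0225). The difference at 100 nM AG014699 was -0.49 (adjusted p = 0.0684), and without array 1 of that group it was -0.70 and passed (adjusted p = 0.0103). With all arrays kept it passed in several settings but not in all. Among these were the signals as deposited (-0.46, adjusted p = 0.0240), trend with robust variance (adjusted p = 0.0227) and the titles' replicate number as a block (adjusted p = 0.0198). Against DMSO the combination did not pass when any 1 of the 6 arrays of the pair was left out (adjusted p from 0.0572 to 0.124, changes from -0.63 to -0.50). Against LY294002 it did not pass without LY294002 array 1 (-0.48, adjusted p = 0.0979) or without array 2 or 3 of the combination (adjusted p = 0.0644 and 0.0788). PDPK1, the kinase gene whose product activates AKT, differed by -0.20 to 0.20 and did not pass.

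GSK3B, a kinase gene whose product AKT inhibits, was higher with AG014699 alone. It gave 9.44, 9.42 and 9.60 with DMSO, 9.79, 9.88 and 9.72 with 10 nM and 9.60, 10.04 and 9.90 with 100 nM. Neither dose overlapped with DMSO, although the lowest 100 nM array and the highest DMSO array were equal to 2 decimals. The differences of 0.31 and 0.36 did not pass (adjusted p = 0.341 and 0.0657), and the difference with the combination was 0.09. Without array 1 of 100 nM AG014699 the difference at that dose was 0.48 and passed (adjusted p = 0.0213). With all arrays kept it passed in several settings but not in all, for example with quantile normalization alone (0.33, adjusted p = 0.0310) and in the authors' value table (0.33, adjusted p = 0.0258).

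In the mTOR complexes, the kinase gene MTOR rose with 100 nM AG014699. It gave 9.79, 9.81 and 9.79 with DMSO and 10.05, 10.36 and 10.19 with 100 nM AG014699. At 10 nM it gave 10.12, 10.01 and 9.81, with LY294002 10.07, 9.85 and 9.87, and with the combination 10.04, 10.07 and 9.85. The DMSO arrays were nearly identical and lay below all 100 nM, LY294002 and combination arrays.

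The rise of MTOR was 0.40 at 100 nM (SE 0.13, adjusted p = 0.0351), and the differences of 0.13 with LY294002 (adjusted p = 0.704) and 0.19 with the combination (adjusted p = 0.335) did not pass. The call at 100 nM was lost without any 1 of the 3 DMSO arrays (adjusted p from 0.0775 to 0.0853). It was also lost without array 2 of 100 nM AG014699 (0.32, adjusted p = 0.129), array 3 (0.41, adjusted p = 0.0650) or array 1 of every group (0.48, adjusted p = 0.0577).

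MLST8, the gene of a subunit that both mTOR complexes share, fell when 100 nM AG014699 was added to LY294002. It gave 9.09, 8.56 and 8.80 with LY294002 and 8.11, 8.12 and 8.11 with the combination. With DMSO it gave 8.83, 8.35 and 8.43, at 10 nM AG014699 8.57, 8.44 and 8.38, and at 100 nM 8.49, 8.12 and 8.11. The combination lay below all DMSO and LY294002 arrays and overlapped with 100 nM AG014699.

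The fall of MLST8 against LY294002 was 0.70 (SE 0.16, 95% confidence interval -1.05 to -0.36, adjusted p = 0.00756), and it passed under all 27 alternative settings. Against DMSO the combination differed by -0.42 and did not pass (adjusted p = 0.0823), and LY294002 alone differed by 0.28 (adjusted p = 0.482). The combination passed against DMSO with the titles' replicate number as a block in the fit (adjusted p = 0.0272) and with array weights (adjusted p = 0.0427). It also passed with the signals as deposited (-0.34, adjusted p = 0.0492) and in the authors' value table (-0.34, adjusted p = 0.0478). The interaction of -0.41 did not pass (adjusted p = 0.732). RPTOR, the scaffold gene of mTOR complex 1, gave differences of -0.39 to 0.31 and DEPTOR of -0.11 to 0.35, and neither passed. DEPTOR was detected on 0 arrays with DMSO and with 100 nM AG014699, and on 2 of 3 with the combination.

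TSC1, which encodes the stabilising partner of TSC2, was highest with the combination. It gave 8.83, 9.16 and 9.04 with DMSO and 9.63, 9.65 and 9.55 with the combination. The 10 nM arrays gave 8.86, 9.29 and 9.31, the 100 nM arrays 9.04, 9.05 and 9.43, and the LY294002 arrays 9.12, 9.45 and 9.25. The combination arrays lay above every array of the other groups, which overlapped with each other.

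TSC1 rose by 0.60 with the combination against DMSO (SE 0.16, adjusted p = 0.0142). The differences of 0.44 from 100 nM AG014699 (adjusted p = 0.273) and 0.34 from LY294002 (adjusted p = 0.155) did not pass, and the interaction was 0.17 (adjusted p = 0.879). Without DMSO array 1 the rise did not pass (0.51, adjusted p = 0.0644), nor without array 1 of every group (0.50, adjusted p = 0.0781). TSC2 differed by -0.27 to 0.26 and RHEB, the GTPase gene under its control, by -0.10 to 0.30, and neither passed.

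Of the genes of mTOR complex 1 substrates, none passed in any comparison of the main fit. The S6 kinase gene RPS6KB1 was the most variable member. It gave 8.37, 9.30 and 9.23 with DMSO and 7.57, 8.25 and 8.88 with 100 nM AG014699, so that the groups overlapped at a difference of -0.73 (SE 0.34, adjusted p = 0.138). Same-numbered arrays differed by -0.80, -1.05 and -0.36, and with the titles' replicate number as a block the difference passed (adjusted p = 0.0192). Same-numbered arrays of these 2 groups did not all deviate together over genes (r from -0.07 to 0.24). Without array 3 of 100 nM AG014699 the difference was -1.05 and passed (adjusted p = 0.0414). The interaction was 1.00 with a 95% confidence interval from -0.02 to 2.02. EIF4EBP1, the gene of a repressor of cap-dependent translation, gave 7.57, 6.78 and 6.62 with DMSO and 6.38, 6.47 and 6.63 with 100 nM AG014699, and its difference of -0.50 did not pass (adjusted p = 0.133). RPS6KB2, the second S6 kinase gene, stayed within -0.22 and 0.18.

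Seen across the whole set, LY294002 left the RNA of its own target pathway without a call apart from DDIT4. The other 21 members differed from DMSO by -0.46 to 0.28, and for 20 of them the 95% confidence interval lay within 1 log2 unit of 0 on both sides. The groups did not overlap for 3 members, DDIT4, MTOR and PIK3R1, while this held for 18.1% of all genes. With LY294002 added to 100 nM AG014699 the members differed by -0.40 to 0.72 and none passed, and the intervals of 20 of 22 lay within 1 log2 unit of 0. In that comparison 3 members, DDIT4, TSC1 and PIK3C3, did not overlap between groups, against 17.6% of all genes.

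**Figure D3:**
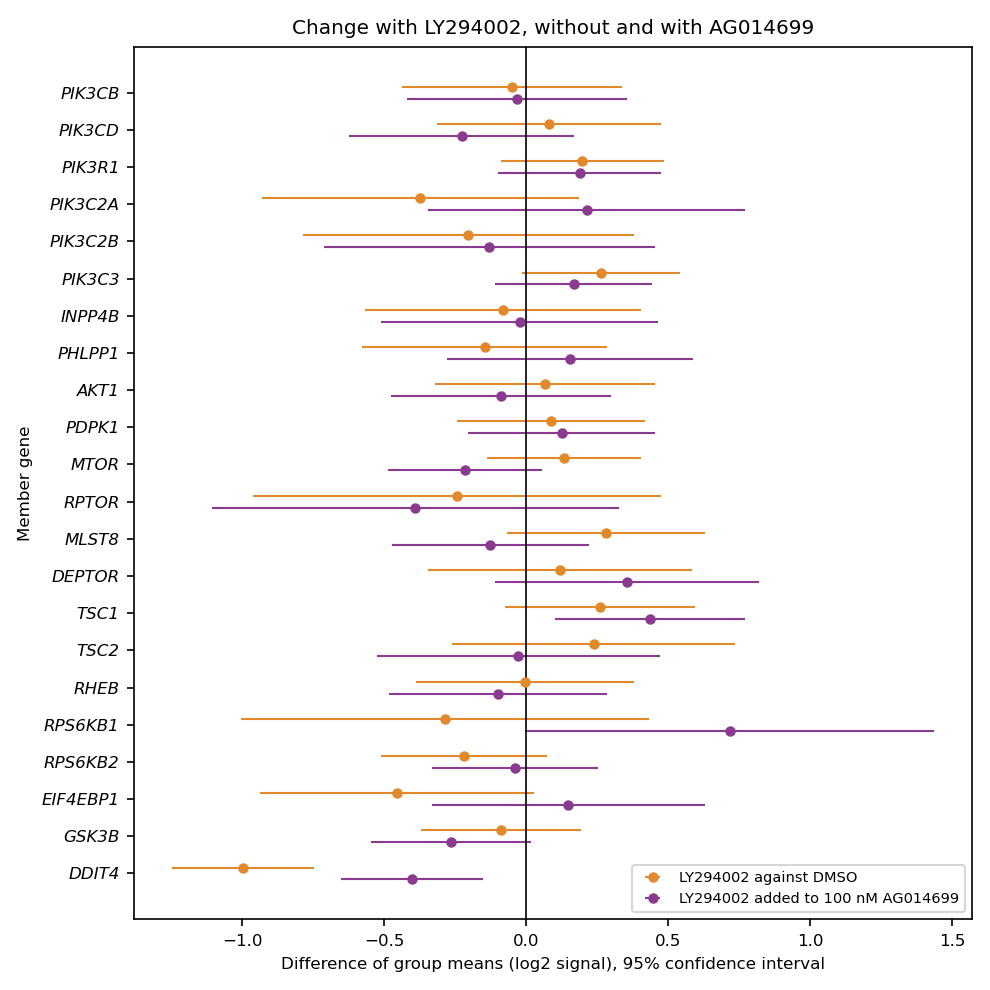
Difference of group means (log2 signal, point) with its 95% confidence interval (bar) for the 22 members, for LY294002 against DMSO (orange) and for LY294002 added to 100 nM AG014699 (purple), 3 arrays a group. For DDIT4 the first interval runs from -1.25 to -0.75 and the second from -0.65 to -0.15; for most other members both bars cross 0.

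With AG014699 the count of members whose arrays did not overlap with DMSO was 5 of 22 at 10 nM (20.8% of all genes), 4 at 100 nM (36.0% of all genes) and 8 with the combination (40.1% of all genes). Between the combination and LY294002 alone it was 6 (35.7% of all genes), and between the doses of AG014699 it was 3 (28.5% of all genes). These 3, PIK3CB, EIF4EBP1 and DDIT4, were lower at 100 nM than at 10 nM by 0.35, 0.47 and 0.25, and none passed. The comparisons against DMSO share its 3 arrays.

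Several probes were kept for 8 of the members, 18 probes in all, and their differences did not always match. When every probe was tested on its own, with adjustment over 23680 probes, 1 of 32 member probes passed with 100 nM AG014699 (14.1% of all probes), 1 with LY294002 (0.452%), 2 with the combination against DMSO (13.1%) and 5 with the combination against LY294002 (11.4%). None of the 32 passed with 10 nM AG014699 (1.11%), between the doses (5.59%), with LY294002 added to 100 nM (0.131%) or for the interaction (0.00422%). The probe that passed with 100 nM AG014699 was a second AKT1 probe, detected on all 15 arrays, at -0.60 (SE 0.12, adjusted p = 0.00381). That probe also passed with the combination against DMSO at -0.52 (adjusted p = 0.0107) and against LY294002 at -0.67 (adjusted p = 0.00219). The probe used for AKT1 gave -0.58 with the combination against DMSO in this fit, with an adjusted p of 0.0548, and the remaining AKT1 probe, detected on 7 arrays, gave 0.38.

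TSC1 had 3 probes, which differed by 0.60, 0.56 and -0.26 with the combination, and only the first passed (adjusted p = 0.0242). The 2 probes of PIK3C2A went in opposite directions with 100 nM AG014699, at -0.70 for the brighter and 0.26 for the other, both detected on all 15 arrays. The lower level of PIK3C2A was therefore a reading of 1 probe. In this fit MTOR, PIK3C3 and, against DMSO, PIK3CD did not pass (adjusted p = 0.0604, 0.0585 and 0.0521).

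**Figure D4:**
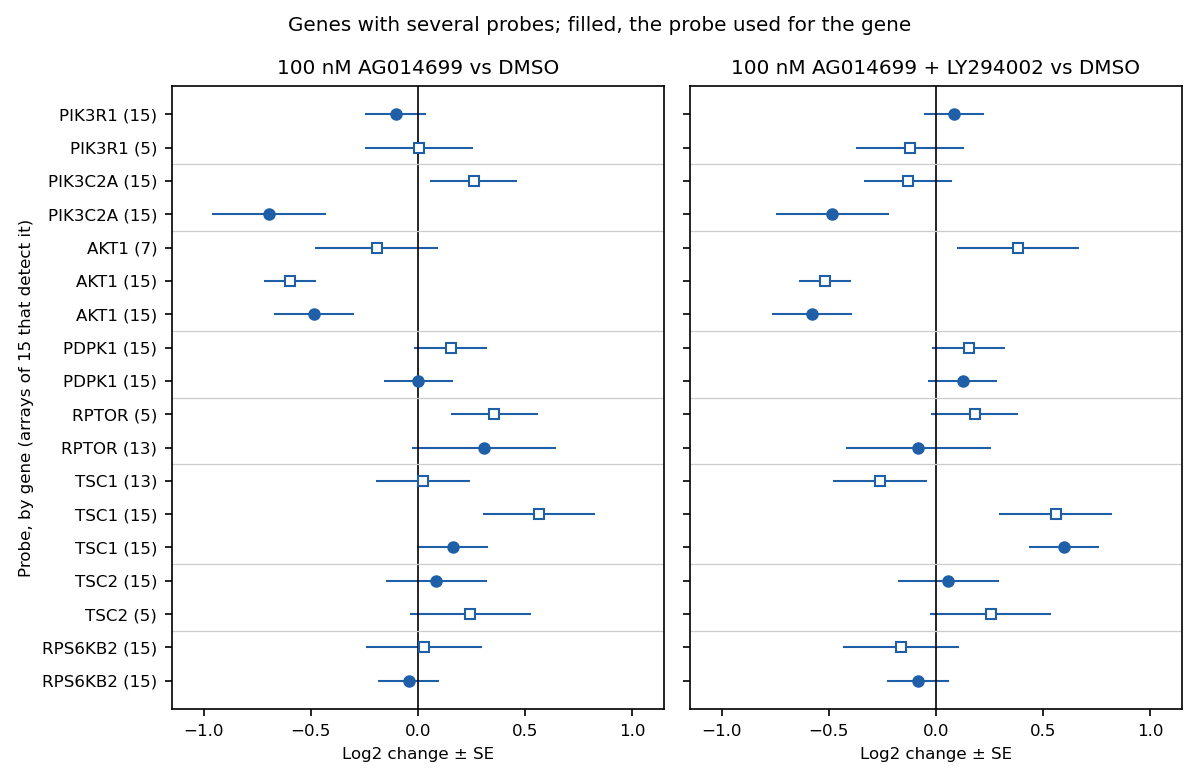
Log2 difference from DMSO (point) with its SE (bar) for the 18 probes of the 8 members with several kept probes, with 100 nM AG014699 (left) and with the combination (right); filled points are the probes used for the gene and numbers in brackets the arrays of 15 that detected the probe. The 2 AKT1 probes detected on 15 arrays lie together below 0, and the 2 PIK3C2A probes lie on opposite sides of 0 on the left.

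Around these components, 83 further pathway genes were listed with earlier results of these data known, and 71 were measured. LY294002 alone gave no call by limma among them, 0 of 71 against 1.12% of all genes, and 8 (11.3%) had an unadjusted p under 0.05, against 13.4%. With 10 nM AG014699 1 passed (1.41%, against 2.37% of all genes), with 100 nM 13 did (9 higher and 4 lower, 18.3%), and with the combination against DMSO 19 did (14 higher and 5 lower, 26.8%), which can be read against the 21.5% and 19.9% of all genes given above. The calls lay mainly in the lysosomal amino acid branch, the largest of these lists. Its proteins bring mTOR complex 1 to the lysosome when amino acids are present. Of its 21 measured genes 8 passed with 100 nM AG014699 (5 higher and 3 lower) and 10 with the combination (7 higher and 3 lower), while 0 of 10 further phosphatase genes passed in either by limma (1 and 0 at an unadjusted p under 0.05). The counts for the 2 comparisons were 1 and 2 of 5 further PI3K and adaptor genes (with the replicate block 4 for the combination), 2 and 1 of 9 genes of mTOR complex partners, 1 and 2 of 9 AMPK genes and 1 and 4 of 17 genes of downstream substrates and related kinases.

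RRAGC, a Rag GTPase gene of that branch, gave 10.37, 9.92 and 10.19 with DMSO, 11.16, 11.30 and 11.07 with 100 nM AG014699 and 10.88, 10.76 and 10.97 with the combination. It rose by 1.02 (SE 0.14, adjusted p = 0.000140) and by 0.71 (SE 0.14, adjusted p = 0.00256), and the treated arrays lay above all DMSO arrays. Its partner gene RRAGB rose by 0.51 with 100 nM (SE 0.16, adjusted p = 0.0330) and by 0.82 with the combination (SE 0.16, adjusted p = 0.00216). SESN2, a leucine sensor gene whose product holds the Rag GTPases back, rose by 0.88 and 0.90 (SE 0.21, adjusted p = 0.00789 and 0.00753). SLC38A9, an amino acid transporter gene of the lysosome, rose by 0.82 with the combination (SE 0.23, adjusted p = 0.0225).

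The genes of the branch that fell were looked up after their values were seen. NPRL3, a gene of the GATOR1 complex that switches Rag GTPases off, fell by 0.78 with 100 nM AG014699 and by 0.63 with the combination (SE 0.19, adjusted p = 0.00897 and 0.0298). At 100 nM CASTOR1, an arginine sensor gene whose product holds the branch back, fell by 0.79 (SE 0.20, adjusted p = 0.0127), and ITFG2, a gene of the KICSTOR complex that anchors GATOR1 at the lysosome, fell by 0.37 (SE 0.12, adjusted p = 0.0345). With the combination KPTN, a second KICSTOR gene, fell by 0.81 (SE 0.24, adjusted p = 0.0263), and LAMTOR4, a gene of the Ragulator complex that activates the branch, fell by 0.47 (SE 0.16, adjusted p = 0.0442). Their roles were also read after the values were seen, and a direction of the branch as a whole was not tested. With the combination the falls included the activator gene LAMTOR4. The genes that rose included Rag GTPase genes and, in both comparisons, the inhibitor gene SESN2.

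Single arrays ended most of these falls. NPRL3 at 100 nM did not pass without array 1 of every group (-0.52, adjusted p = 0.0657), and with the combination not without DMSO array 1 or 3 or any 1 of the 3 combination arrays (adjusted p from 0.0641 to 0.114). CASTOR1 did not pass without array 2 of 100 nM AG014699 (-0.58, adjusted p = 0.0632). ITFG2 did not pass without DMSO array 1 or 2, any 1 of the 3 arrays of 100 nM AG014699, or array 1 of every group (adjusted p from 0.0506 to 0.140). KPTN did not pass without DMSO array 1 or 2, array 1 or 3 of the combination, or array 1 of every group (adjusted p from 0.0514 to 0.104), nor in the authors' value table (-0.30, adjusted p = 0.0581). LAMTOR4 did not pass without any 1 of the 3 DMSO arrays, array 2 or 3 of the combination, any 1 of the 3 arrays of 10 nM AG014699, LY294002 array 2 or 3, or array 1 of every group (adjusted p from 0.0514 to 0.176). With all arrays kept, fitting only the groups compared lost NPRL3 at 100 nM, ITFG2 and LAMTOR4 (adjusted p = 0.0595, 0.113 and 0.0524). Testing every probe on its own lost ITFG2 and LAMTOR4 (adjusted p = 0.0624 and 0.0690), and array weights lost ITFG2 (adjusted p = 0.0517).

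Leaving out arrays moved the counts of the branch. With 100 nM AG014699 the branch had 5 calls without array 2 of that group. With the combination it had 4 without DMSO array 1 or array 3 of the combination and 6 without DMSO array 2 or 3, array 2 of the combination, or array 1 of every group. RRAGC and SESN2 passed in both comparisons under all alternative settings. RRAGB at 100 nM did not pass without DMSO array 1 (0.39, adjusted p = 0.130), array 2 (0.54, adjusted p = 0.0558) or array 3 of its group (0.39, adjusted p = 0.121), or array 1 of every group (0.48, adjusted p = 0.123). SLC38A9 did not pass without DMSO array 1 or array 1 or 3 of the combination (adjusted p from 0.0735 to 0.0844), or array 1 of every group (adjusted p = 0.101).

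Next to the mTOR complexes, TBC1D7, the gene of a further subunit of the TSC complex, rose with both doses of AG014699. It gave 8.90, 8.28 and 8.67 with DMSO, 9.28, 9.27 and 9.27 with 10 nM, 9.79, 9.51 and 9.69 with 100 nM and 9.27, 8.80 and 8.83 with the combination. The AG014699 groups did not overlap with DMSO, and the combination did. The rise was 1.05 with 100 nM (SE 0.16, adjusted p = 0.000348), which passed under all settings, and 0.66 with 10 nM (adjusted p = 0.0476), which was lost in 16 of 27. At 10 nM it was lost without any 1 of the 3 arrays of 10 nM AG014699 (adjusted p from 0.128 to 0.138), without DMSO array 2 (0.49, adjusted p = 0.220) or array 3 (0.68, adjusted p = 0.108), and without single arrays of groups outside the pair, namely array 1 or 3 of 100 nM AG014699, any LY294002 array, or array 2 or 3 of the combination (adjusted p from 0.0522 to 0.0628). PRR5L, a gene linked to mTOR complex 2, rose by 1.08 with 100 nM and by 1.23 with the combination (SE 0.31, adjusted p = 0.0231 and 0.0122). Its DMSO arrays ranged from 5.51 to 6.57, and neither rise passed without DMSO array 1 (adjusted p = 0.0800 and 0.0504) or 2 (adjusted p = 0.101 and 0.0592). At 100 nM PRR5L also did not pass without array 2 or 3 of that group (adjusted p = 0.0551 and 0.0952) or when only the groups compared were fitted (adjusted p = 0.0943). With the combination it did not pass without array 1 of every group either (adjusted p = 0.0811).

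**Figure D5:**
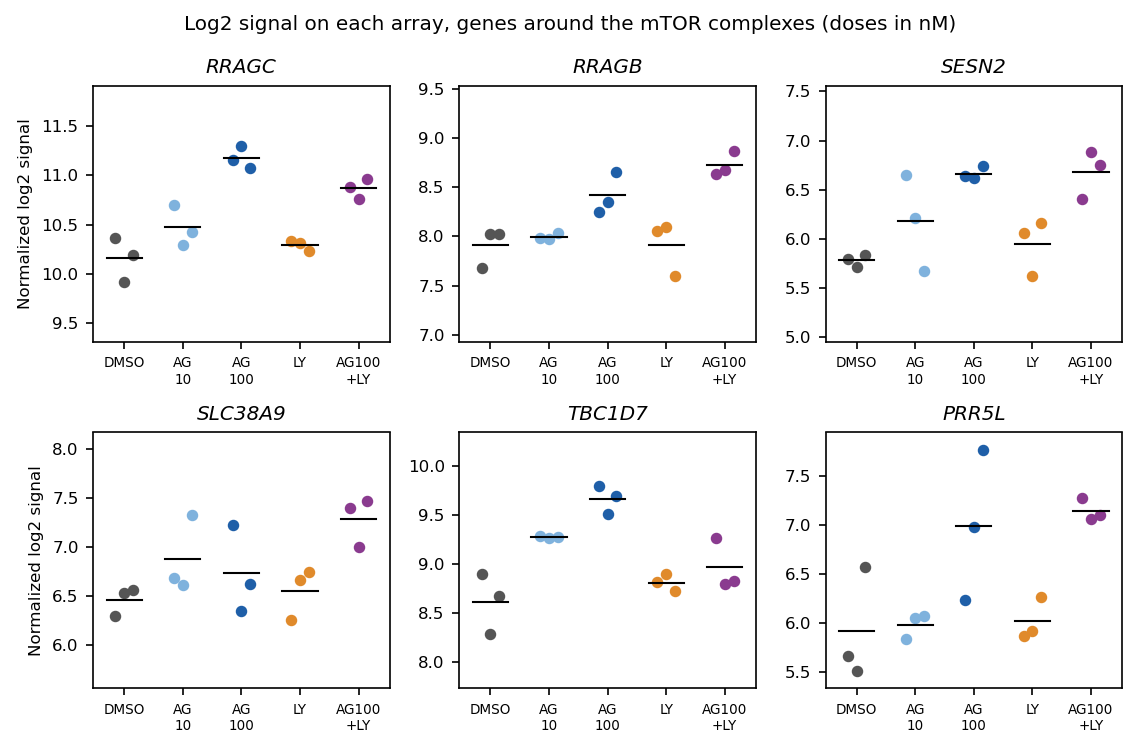
Normalized log2 signal on each array (points) and group mean (line) for 6 genes around the mTOR complexes across the 5 treatments, with AG for AG014699 (dose in nM) and LY for LY294002. RRAGC lies at 10.76 or higher with 100 nM AG014699 and the combination and at 10.37 or lower with DMSO and LY294002; TBC1D7 is higher with AG014699 alone than with DMSO, and its combination arrays overlap with DMSO.

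Elsewhere in the network, PRKAB1, the gene of an AMPK regulatory subunit, rose by 0.65 with 100 nM AG014699 and by 0.58 with the combination (SE 0.13, adjusted p = 0.00192 and 0.00516), under all alternative settings. EEF2K, the kinase gene that slows translation elongation, fell by 0.52 and 0.51 (SE 0.14, adjusted p = 0.0169 and 0.0191). Those falls did not pass without DMSO array 3 (adjusted p = 0.0543 and 0.0594), without array 1 of 100 nM AG014699 (adjusted p = 0.0651), or without array 2 of the combination (adjusted p = 0.0919). Without array 1 of every group the fall at 100 nM did not pass either (adjusted p = 0.125). PIK3CG, the gamma catalytic subunit gene, was detected on 0 LY294002 arrays and was at least 1.70-fold higher with the combination (adjusted p = 0.000984). The bound is the mean of the lowest signals that count as detected on the LY294002 arrays. Against DMSO the fitted difference of PIK3CG with the combination was 0.90 (SE 0.16, adjusted p = 0.00134). Only 1 of 3 DMSO arrays detected it, at a mean of 5.03 over the 3, so the size of this difference is uncertain. PIK3IP1, the gene of a PI3K-inhibiting membrane protein, rose by 0.70 with the combination (SE 0.20, adjusted p = 0.0228) and did not pass without DMSO array 1, array 1 or 2 of the combination, or array 1 of every group (adjusted p from 0.0582 to 0.120). It also rose by 0.62 with 100 nM AG014699, a call lost in 13 of 27 settings. Among these were the signals as deposited (0.26, adjusted p = 0.0698) and the authors' value table (0.26, adjusted p = 0.0582).

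With the combination against DMSO, 4 more genes passed among those named by size in their lists. PDCD4, the gene of a translation inhibitor, rose by 0.64 (SE 0.17, adjusted p = 0.0161), ULK1, the kinase gene that starts autophagy, by 0.52 (SE 0.16, adjusted p = 0.0292) and the forkhead factor gene FOXO4 by 0.51 (SE 0.15, adjusted p = 0.0222). PRKAG2, a gamma subunit gene of AMPK, fell by 0.45 (SE 0.11, adjusted p = 0.00959) and did not pass without array 1 of every group (adjusted p = 0.0533). PDCD4 and ULK1 did not pass without DMSO array 1 or 2, without array 2 or 3 of the combination, or without array 1 of every group (adjusted p from 0.0503 to 0.110), and ULK1 not without array 1 of the combination either (adjusted p = 0.0700). FOXO4 did not pass without DMSO array 1 or 2, array 1 or 3 of the combination, or array 1 of every group (adjusted p from 0.0572 to 0.212).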

How the data were processed

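RNA of MDA-MB-436 cells had been hybridized to Illumina HumanHT-12 arrays, 1 colour, after biotin labelling, per the labels' protocols. The authors deposited 2 columns per array for 48107 probes, which the file headers call a signal (an intensity) and a detection p-value. Array medians of 114 to 115 show that the deposited intensity had already been scaled between arrays, by a method not given in the sources used here. A second table that the authors deposited held log2 values equal to the centred log2 intensity within 1e-07 for 13867 complete probes, with blanks at higher detection p, and served as an alternative.

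With R 4.3.3 and limma 3.58.1 (statmod 1.5.0 for the replicate block), 48105 probes without missing signals were background corrected and quantile normalized with neqc (offset 16). Probes with a detection p under 0.05 on at least 3 arrays were kept, 23680 in all, and 16577 of them carried 1 gene symbol in the platform annotation. The probe with the highest mean stood for a gene, with 22 of 28 listed genes measured through 32 of 34 annotated probes. Groups came from the titles. The titles number the arrays, and same-numbered arrays of DMSO and the combination deviated together over genes (r from 0.16 to 0.26), the 1 of 10 pairs of groups with every r over 0.1. Blocked values are given for that pair where they change a call. They are also given for AKT1 and RPS6KB1 at 100 nM AG014699 against DMSO, where r ran from -0.07 to 0.24. A fit with 5 group means (lmFit, eBayes) gave 8 comparisons and an F test. This fit was tested on simulated data. Alternatives changed the background correction, normalization, source of values, filter, probe choice, array weights, variance model, groups fitted, block and arrays. All measured members are named, those that passed in full; further pathway genes are named up to 4 a list by size among those that passed against DMSO. The members, the other gene lists and the tests were chosen with earlier results of these data known.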

Additional observations from a re-analysis of the deposited data

How the results depend on the processing

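Of the 10 member calls, 3 passed in all 27 alternative settings (DDIT4 with LY294002, and DDIT4 and MLST8 for the combination against LY294002), and the other 7 missed the threshold in 2 to 8 settings, given beside them in part and none with the sign turned. Of 166 pairs of member and comparison that had not passed, 6 passed in some setting, none with the sign turned. With quantile normalization alone, normexp, the signals as deposited or the authors' value table, the count of members was 1 for 10 nM AG014699 against DMSO, 4 for 100 nM and 6 for any difference. With the strict filter or array weights it was 1, 2 and 6. Trend with robust variance gave 4 for 100 nM and 6 for any difference, every probe on its own 0 for 100 nM and 1 for the combination against DMSO, and fitting only the groups compared 0 for 100 nM. Leaving out arrays gave 0 to 1 members for 10 nM, 0 to 3 for 100 nM, 1 to 4 for the combination against DMSO, 2 to 4 against LY294002 and 1 to 3 for any difference. The cause of these shifts was not tested.

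Same-numbered arrays correlated at -0.07 to 0.32 in their deviations, over 0.1 for 21 of 30 pairs, and 12 of 15 arrays lay closest to their own number, a hint of pairing from the data and not from the design. Every pair exceeded 0.1 between DMSO and the combination and in none of the other 9 pairs of groups. With the number as a replicate block, all 10 member calls passed, 3 members passed for 100 nM and 5 for the combination against DMSO. Those added were, at 100 nM, AKT1 (-0.49, adjusted p = 0.0198) and RPS6KB1 (-0.73, adjusted p = 0.0192, with same-numbered differences of -0.80, -1.05 and -0.36) and, with the combination, MLST8. Over all genes the settings that keep all arrays gave 215 to 508 calls for 10 nM (main 292), 23 to 317 for LY294002 (138), 563 to 1497 between the doses (1179), 14 to 129 for LY294002 added to 100 nM (41) and 0 to 14 for the interaction (1). With array 1 of every group left out, calls were 98 for 10 nM, 31 for LY294002, 1547 for the combination against DMSO, 662 between the doses, 9 for LY294002 added to 100 nM, 1279 for the combination against LY294002 and 2033 for any difference (3391). Dim signals limit PHLPP1, DEPTOR and INPP4B.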
